A study of Mus musculus with 26 samples.

Results

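The comparison described here asks whether loss of the histone demethylase LSD1 changes gene expression by a different amount in 2 mouse models of acute myeloid leukaemia. It was taken from the RNA-seq libraries without all-trans retinoic acid (ATRA), as the log2 change of each gene in MN1 LSD1 knockout over MN1 control cells, minus the same change in Hoxa9/Meis1 (H9M) cells. The 4 groups were MN1 KO W/O ATRA, MN1 CTL W/O ATRA, H9M KO W/O ATRA and H9M CTL W/O ATRA, with 3 libraries each, which makes 12 of the 26 samples of the series. Of 48795 genes in the count table, 14663 passed a filter on low counts and entered the comparison. A positive difference means that the knockout effect was higher in MN1 cells, and a negative one that it was higher in H9M cells.

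Both models are myeloid progenitor cells of C57BL/6 mice that were transformed by MN1 or by Hoxa9 together with Meis1. Every sample, KO and CTL, carries the same strain entry, which names CreERT2- and the LSD1 allele LSD1TM1Schuele, and so the entry does not separate the groups. The KO libraries list 4-hydroxytamoxifen (4-OHT, 0.1 µM for 72 h) as the agent that induced the knockout, and the CTL libraries list no agent, so the knockout and the 4-OHT exposure cannot be told apart. All cells grew in medium with 15% FCS, mIL3 and hIL6 at 10 ng/ml each, and mSCF at 100 ng/ml, cytokines that sustain immature myeloid cells. The other 12 RNA libraries repeat the 4 groups with 1 µM ATRA and are described at the end. They give no value to the difference itself, but all 24 libraries entered 1 fit, so they share in the gene filter, the scaling and the estimate of spread behind each p-value. With the 12 libraries alone in the fit, 4306 genes were called in place of 4159.

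LSD1, encoded by Kdm1a, removes methyl groups from lysine 4 of histone H3 and works as part of the CoREST repressor complex. The zinc-finger repressors GFI1 and GFI1B bring this complex to DNA through their SNAG domains, and in myeloid progenitors they hold back genes that the transcription factor PU.1 (gene Spi1) switches on during monocyte and granulocyte differentiation. Loss or inhibition of LSD1 is known to raise myeloid differentiation genes in several leukaemia models.

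Kdm1a (ENSMUSG00000036940.15, chromosome 4, 136550533 to 136602787, GRCm38.p6) had 1.41, 1.28 and 1.58 CPM in MN1 KO libraries, 187, 193 and 192 CPM in MN1 CTL libraries, 0.937, 0.998 and 0.952 CPM in H9M KO libraries, and 138, 139.9 and 139 CPM in H9M CTL libraries. Every KO library lay far below every CTL library of its model. The fall was -7.06 in MN1 and -7.15 in H9M on the log2 scale, and the difference of 0.09 ± 0.16 (SE) did not pass the test (adjusted p = 0.821). CPM here is a gene's count divided by its library's total and scaled alike in every library, and the totals of the 12 libraries ran between 22402558 and 30964298 counts. The genes that name the models stood where the labels put them. Hoxa9 averaged 68.1 ± 2.65 CPM in MN1 KO, 79.9 ± 4.58 CPM in MN1 CTL, 22767 ± 659 CPM in H9M KO and 27467 ± 439.8 CPM in H9M CTL, Meis1 had no counts in MN1 cells and 263 and 229 CPM in H9M KO and H9M CTL, and Mn1 had 51.4 and 59.3 CPM in MN1 KO and MN1 CTL and no counts in H9M cells. A transforming copy and the cell's own gene cannot be separated in these counts. The sample names of all H9M libraries end in 1 code and those of all MN1 libraries in another, and the labels do not say what the code stands for. The model and whatever the code marks cannot be told apart in levels, while an effect of it that is the same in KO and CTL libraries drops out of the difference. The labels do not say that replicates were separate cultures, so p-values measure the spread between these libraries, which may be technical. In bulk RNA, fewer cells of a type and less RNA per cell cannot be told apart.

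The knockout effect differed between the models for many genes. At an adjusted p under 0.05 (edgeR's quasi-likelihood test with Benjamini-Hochberg adjustment over all genes tested), 4159 of 14663 genes were called, 28.4% of those tested, with 2080 higher in MN1 (14.2%) and 2079 lower (14.2%). At 2-fold or more, 908 genes (6.19%) were called, 472 higher (3.22%) and 436 lower (2.97%). Each knockout effect was widespread by itself. In MN1 cells 8071 genes passed (55.0%), 4212 up (28.7%) and 3859 down (26.3%). In H9M cells 7557 passed (51.5%), 3834 up (26.1%) and 3723 down (25.4%). Large changes were mostly increases in both models. At 2-fold or more, 1449 genes rose (9.88%) and 210 fell (1.43%) in MN1, 11.3% of genes in all, and 1273 rose (8.68%) and 241 fell (1.64%) in H9M, 10.3% in all. The median effect over all genes was 0.01 in MN1 and 0 in H9M, and the median difference was within 0.01 of 0.

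**Figure D1:**
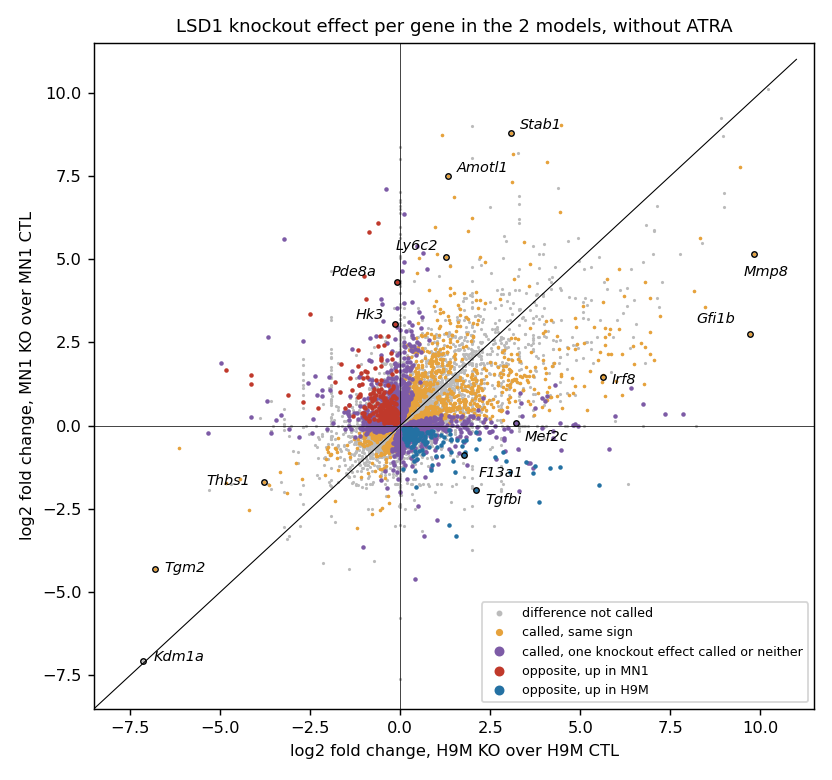
Each point is 1 of 14663 genes, with its log2 fold change of H9M KO over H9M CTL on the horizontal axis and of MN1 KO over MN1 CTL on the vertical axis, both without ATRA. Genes on the diagonal have equal effects; red points mark the 298 genes up in MN1 and down in H9M, and blue points the 233 with the reverse. Grey points are genes whose difference was not called.

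Most genes with an effect in both models moved in the same direction. Of 5370 genes called in both knockouts, 4839 had the same sign and 531 opposite signs, and for 3228 of the 4839 the difference was not called. Across the 14663 genes, the effects in MN1 and H9M, which share no library, had a Pearson correlation of 0.54 and a Spearman correlation of 0.52. The 4159 genes with a called difference fell into 3 kinds. In the first the models moved the same way by unequal amounts, with 540 up more in MN1, 561 up more in H9M, 294 down more in MN1 and 216 down more in H9M. In the second only 1 knockout effect was called, with 531 up and 493 down in MN1, and 474 up and 461 down in H9M. In the third, 531 genes, the effects were called in opposite directions, 298 up in MN1 and down in H9M, and 233 the other way. For the remaining 58 neither effect was called by itself.

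The promoters of 5 genes are shown first. For each direction of opposite effects, the 2 genes with the largest absolute log2 difference were taken. They were picked among genes with at least 5 CPM in their highest group and 1 CPM in the highest group of each model, without clone names. The fifth was chosen after the motif shares were seen, from the class richest in the PU.1 motif described below. It was taken only among members of the gene lists described below whose window holds that motif. Among those it had the smallest adjusted p for the difference. A PU.1 match in its window is therefore not a finding, and most windows of its class hold none (37 of 433 do). The windows are RefSeq sequences of GRCm38.p6, 250 bases before to 50 after a transcript start, in lower case, 5′ to 3′. Capitals mark a match to GAGGAAGT (a PU.1 motif) or AAATCA (the GFI1 core AATC with flanking bases) on either strand. Pde8a (chr7:81213015-81213314, plus strand) and Hk3 (chr13:55021336-55021635, minus strand) rose in MN1 and fell in H9M. Sema3a (chr5:13396534-13396833, plus strand) and Tgfbi (chr13:56609336-56609635, plus strand) fell in MN1 and rose in H9M. Ly6c2 (chr15:75111922-75112221, minus strand) rose in both, more in MN1. The Sema3a window belongs to a transcript start inside the annotated gene, and for Ly6c2 the table lists 2 starts.
Pde8a: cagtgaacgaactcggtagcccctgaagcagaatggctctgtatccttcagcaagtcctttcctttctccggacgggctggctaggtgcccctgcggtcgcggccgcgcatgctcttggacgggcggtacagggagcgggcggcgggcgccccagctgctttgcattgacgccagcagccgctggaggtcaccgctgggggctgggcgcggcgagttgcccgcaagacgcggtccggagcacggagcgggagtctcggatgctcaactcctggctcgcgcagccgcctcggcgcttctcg
Hk3: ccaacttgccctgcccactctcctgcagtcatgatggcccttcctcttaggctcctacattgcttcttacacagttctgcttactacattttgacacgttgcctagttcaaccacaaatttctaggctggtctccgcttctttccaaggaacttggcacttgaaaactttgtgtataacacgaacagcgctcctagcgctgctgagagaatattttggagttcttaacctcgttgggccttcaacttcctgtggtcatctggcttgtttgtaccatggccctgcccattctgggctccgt
Sema3a: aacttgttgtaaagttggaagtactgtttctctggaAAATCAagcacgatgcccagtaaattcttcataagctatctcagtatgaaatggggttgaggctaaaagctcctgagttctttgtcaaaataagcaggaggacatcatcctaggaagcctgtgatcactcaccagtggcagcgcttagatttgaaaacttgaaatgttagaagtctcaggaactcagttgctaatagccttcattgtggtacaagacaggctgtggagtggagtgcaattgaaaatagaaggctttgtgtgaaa
Tgfbi: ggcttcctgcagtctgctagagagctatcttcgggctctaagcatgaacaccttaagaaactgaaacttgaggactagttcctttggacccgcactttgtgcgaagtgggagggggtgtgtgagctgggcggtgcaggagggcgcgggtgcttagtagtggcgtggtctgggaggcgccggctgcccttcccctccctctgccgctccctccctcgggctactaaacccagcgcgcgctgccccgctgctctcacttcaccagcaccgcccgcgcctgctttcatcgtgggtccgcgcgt
Ly6c2: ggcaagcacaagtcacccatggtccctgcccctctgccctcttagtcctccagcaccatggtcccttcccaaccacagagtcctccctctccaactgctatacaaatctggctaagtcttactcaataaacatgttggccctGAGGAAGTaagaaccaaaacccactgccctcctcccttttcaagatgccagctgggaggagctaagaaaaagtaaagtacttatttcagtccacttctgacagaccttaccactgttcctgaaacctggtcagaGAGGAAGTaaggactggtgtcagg
Neither motif was found in the windows of Pde8a, Hk3 and Tgfbi. The Sema3a window holds 1 match to AAATCA, and the Ly6c2 window holds 2 matches to GAGGAAGT.

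Of the 298 genes that rose in MN1 and fell in H9M, 7 are described here. Hk3, the hexokinase of myeloid cells (ENSMUSG00000025877.14, chromosome 13, 55005985 to 55021475), had 139, 136 and 139 CPM in MN1 KO libraries, 17.2, 16.7 and 16.0 CPM in MN1 CTL libraries, 761, 757 and 758 CPM in H9M KO libraries, and 831, 838 and 856 CPM in H9M CTL libraries. It was lowest in MN1 CTL and high in both H9M groups, and no groups overlapped. The gene rose 8.29-fold in MN1 and fell 1.10-fold in H9M, a difference of 3.19 ± 0.05 on the log2 scale (SE, adjusted p = 1.13e-28). Pde8a, a cAMP phosphodiesterase (ENSMUSG00000025584.17, chromosome 7, 81213265 to 81334535), had 16.2, 15.5 and 16.4 CPM in MN1 KO libraries, 0.754, 0.807 and 0.819 CPM in MN1 CTL libraries, 89.4, 90.3 and 91.9 CPM in H9M KO libraries, and 99.3, 96.0 and 99.1 CPM in H9M CTL libraries. Its MN1 CTL level was near 1 CPM and its H9M levels were close to each other, with KO below CTL. Pde8a rose 19.99-fold in MN1, while the fall in H9M was small (-0.10 ± 0.04 on the log2 scale, adjusted p = 0.0459). The difference was 4.42 ± 0.12 (adjusted p = 6.43e-23).

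Pglyrp1, a peptidoglycan-binding protein of neutrophil granules, had 13.3, 13.9 and 12.8 CPM in MN1 KO libraries, 2.45, 2.68 and 2.26 CPM in MN1 CTL libraries, 94.8, 96.9 and 97.1 CPM in H9M KO libraries, and 132, 131 and 133 CPM in H9M CTL libraries. KO libraries were above CTL libraries in MN1 and below them in H9M, and the H9M levels stayed above both MN1 levels. The difference was 2.87 ± 0.09 (adjusted p = 5.99e-21). Spns2, the exporter of sphingosine 1-phosphate, had 116, 117 and 114 CPM in MN1 KO libraries, 79.5, 82.7 and 75.6 CPM in MN1 CTL libraries, 6.07, 5.51 and 6.41 CPM in H9M KO libraries, and 30.2, 28.4 and 29.8 CPM in H9M CTL libraries. The fall in H9M was the larger of its changes, and no groups overlapped. Spns2 rose 1.45-fold in MN1 and fell 4.86-fold in H9M (difference 2.82 ± 0.08, adjusted p = 9.38e-22). The basophil protease gene Mcpt8 averaged 24.2 ± 0.393 CPM in MN1 KO, 8.13 ± 0.0829 CPM in MN1 CTL, 7.88 ± 0.465 CPM in H9M KO and 16.9 ± 0.592 CPM in H9M CTL (SD, n = 3), a difference of 2.66 ± 0.11. Rhoj, a small GTPase, averaged 5.78 ± 0.696 CPM in MN1 KO, 0.890 ± 0.0982 CPM in MN1 CTL, 284 ± 4.66 CPM in H9M KO and 366 ± 12.6 CPM in H9M CTL, a difference of 3.04 ± 0.14. Both passed the test, Mcpt8 at an adjusted p of 1.39e-18 and Rhoj at 2.37e-17. Smad6, an inhibitor of BMP signalling, rose 56.5-fold in MN1, to 10.6 CPM in MN1 KO against 0.184 CPM in MN1 CTL, and was under 1 CPM in both H9M groups, where it fell 1.83-fold.

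Of the 233 genes with the reverse pattern, 7 are described next. Tgfbi, a TGF-beta-induced matrix protein that monocytes make (ENSMUSG00000035493.9, chromosome 13, 56609586 to 56639359), had 10.6, 9.38 and 10.1 CPM in MN1 KO libraries, 37.4, 38.1 and 39.1 CPM in MN1 CTL libraries, 56.3, 57.4 and 57.2 CPM in H9M KO libraries, and 13.3, 13.8 and 12.9 CPM in H9M CTL libraries. The order of the models turned round: MN1 was the higher model in CTL cells and the lower one in KO cells, with no overlap. Tgfbi fell 3.81-fold in MN1 and rose 4.31-fold in H9M (difference -4.04 ± 0.09, adjusted p = 2.74e-25). F13a1, the A subunit of coagulation factor XIII and a monocyte marker, had 115, 116 and 111 CPM in MN1 KO libraries, 205, 211 and 211 CPM in MN1 CTL libraries, 497, 499.9 and 506 CPM in H9M KO libraries, and 155, 145 and 148 CPM in H9M CTL libraries. Again MN1 libraries were higher in CTL and lower in KO cells. The difference was -2.64 ± 0.05 (adjusted p = 1.84e-25). Cd44, the hyaluronan receptor, had 152, 157 and 153 CPM in MN1 KO libraries, 215, 199.97 and 206 CPM in MN1 CTL libraries, 374, 394 and 372 CPM in H9M KO libraries, and 148, 146 and 136 CPM in H9M CTL libraries, with a difference of -1.85 ± 0.06 (adjusted p = 4.45e-21). All 3 genes fell in MN1 KO and rose in H9M KO.

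Sema3a, a secreted guidance protein, had a difference of -4.97 ± 0.54 (adjusted p = 1.12e-08). It had 2.25, 2.64 and 1.58 CPM in MN1 KO libraries, 5.21, 4.94 and 4.88 CPM in MN1 CTL libraries, 2.01, 1.04 and 1.68 CPM in H9M KO libraries, and 0.0771, 0.248 and 0 CPM in H9M CTL libraries. The H9M CTL libraries held 9 counts in all, and without H9M CTL replicate 2 the difference was -6.41. Bcar3, an adaptor protein of integrin signalling, averaged 19.6 ± 1.16 CPM in MN1 KO, 34.1 ± 1.76 CPM in MN1 CTL, 3.32 ± 0.772 CPM in H9M KO and 0.465 ± 0.0432 CPM in H9M CTL (difference -3.66 ± 0.24). Plcb1, a phospholipase C, averaged 6.58 ± 0.188 CPM in MN1 KO, 11.2 ± 0.801 CPM in MN1 CTL, 12.1 ± 1.12 CPM in H9M KO and 3.52 ± 0.494 CPM in H9M CTL (difference -2.58 ± 0.16). In the Toll-like receptor list, Ticam2, an adaptor of TLR4, had this pattern too (difference -1.72 ± 0.14), while its receptor Tlr4 went the other way, up in MN1 and down in H9M (difference 1.17 ± 0.13).

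**Figure D2:**
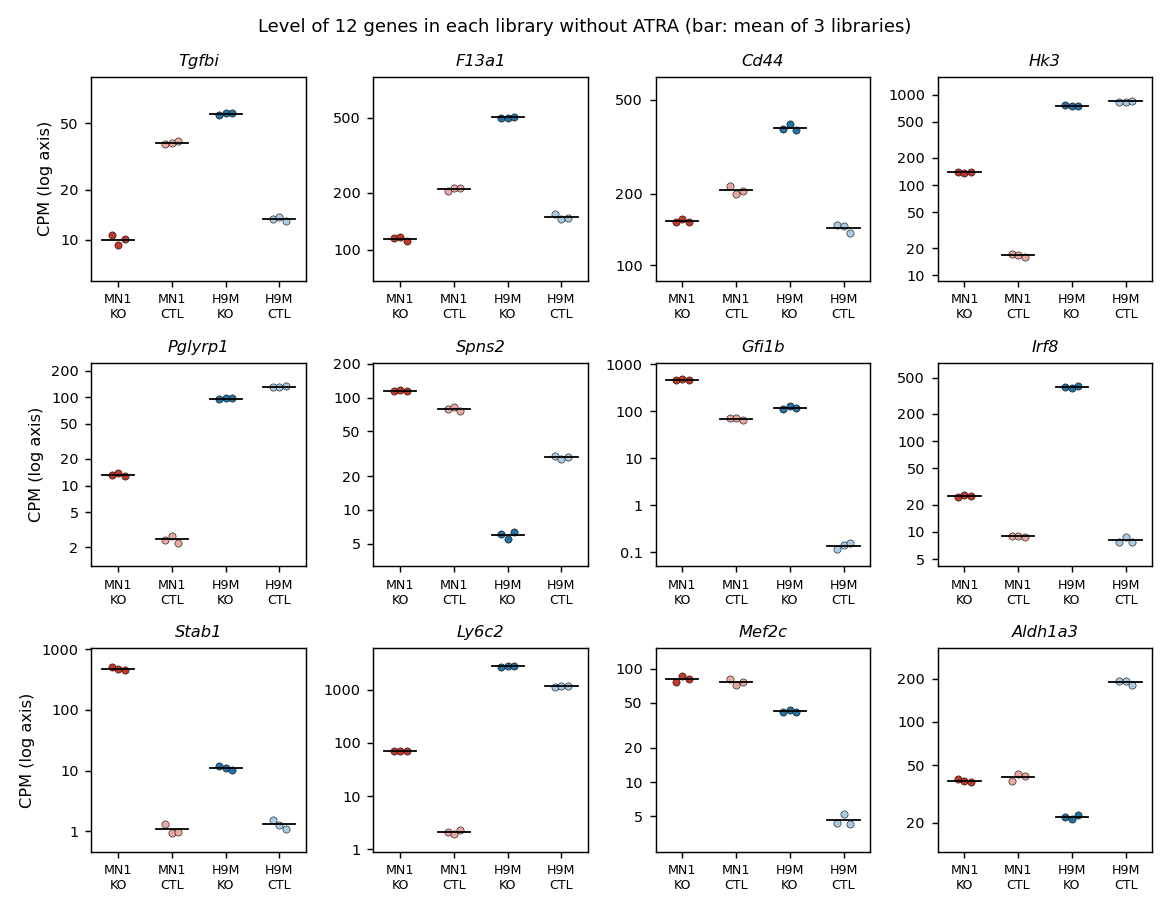
CPM of 12 genes in each of the 12 libraries without ATRA, on log axes, with a bar at the mean of 3 libraries; groups run MN1 KO, MN1 CTL, H9M KO, H9M CTL. Tgfbi, F13a1 and Cd44 are lower in KO than CTL libraries of MN1 and higher in KO than CTL libraries of H9M, while Irf8 and Gfi1b rise in both models by very different amounts.

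GFI1 and its paralog GFI1B, the factors that recruit LSD1, differed in opposite directions. Gfi1b (ENSMUSG00000026815.14, chromosome 2, 28609450 to 28621982) had 472, 478 and 475 CPM in MN1 KO libraries, 72.9, 70.7 and 65.9 CPM in MN1 CTL libraries, 112, 128 and 116 CPM in H9M KO libraries, and 0.116, 0.142 and 0.157 CPM in H9M CTL libraries. Its H9M CTL libraries held 11 counts in all, and its MN1 CTL level was far higher. Gfi1b rose 6.78-fold in MN1 and 839-fold in H9M (difference -6.95 ± 0.19, adjusted p = 1.35e-22). On the linear scale the order was the reverse, since the rise was larger in MN1 in CPM. Gfi1 (ENSMUSG00000029275.17, chromosome 5, 107716655 to 107725805) had 297, 285 and 291 CPM in MN1 KO libraries, 107, 113 and 120.4 CPM in MN1 CTL libraries, 295, 296 and 302 CPM in H9M KO libraries, and 216, 219.8 and 233 CPM in H9M CTL libraries. The KO libraries of the models overlapped at about the same level and the MN1 CTL libraries were the lowest. Gfi1 rose more in MN1 (difference 0.92 ± 0.05, adjusted p = 1.96e-14).

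Spi1, which encodes PU.1, averaged 91.1 ± 4.56 CPM in MN1 KO, 80.1 ± 2.71 CPM in MN1 CTL, 181 ± 4.36 CPM in H9M KO and 162 ± 3.73 CPM in H9M CTL. It rose by 0.18 on the log2 scale in MN1 and by 0.18 in H9M, both called, and the difference was 0.00 ± 0.06 (SE, adjusted p = 1). Cebpa, a factor of granulocyte commitment, averaged 235 ± 10.5 CPM in MN1 KO, 213 ± 5.71 CPM in MN1 CTL, 391.99 ± 13.4 CPM in H9M KO and 443 ± 9.42 CPM in H9M CTL, a small difference of 0.30 ± 0.05 (adjusted p = 1.56e-05). Cebpe, which drives later granulocyte maturation, had 5.87, 5.69 and 5.09 CPM in MN1 KO libraries, 0.905, 0.840 and 0.950 CPM in MN1 CTL libraries, 45.5, 54.0 and 56.7 CPM in H9M KO libraries, and 59.7, 58.9 and 55.6 CPM in H9M CTL libraries. It rose 6.14-fold in MN1 and did not pass the test in H9M (adjusted p = 0.0672), where every library lay above every MN1 library. Its difference was 2.76 ± 0.18. Irf8, a factor of monocyte and dendritic cell fate (ENSMUSG00000041515.9, chromosome 8, 120736358 to 120756694), had 24.1, 25.2 and 24.6 CPM in MN1 KO libraries, 8.94, 9.11 and 8.81 CPM in MN1 CTL libraries, 395, 390.3 and 401 CPM in H9M KO libraries, and 7.75, 8.77 and 7.65 CPM in H9M CTL libraries. The CTL levels of the models lay side by side, and the H9M KO libraries stood apart from all others. Irf8 rose 2.74-fold in MN1 and 49.4-fold in H9M (difference -4.17 ± 0.09, adjusted p = 2.74e-25).

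Several of the 561 genes that rose in both models and more in H9M had large differences. Mmp8, the neutrophil collagenase, averaged 438 ± 20.003 CPM in MN1 KO, 12.3 ± 0.663 CPM in MN1 CTL, 1548 ± 144 CPM in H9M KO and 1.71 ± 0.0782 CPM in H9M CTL. It rose 35.4-fold in MN1 and 913-fold in H9M (difference -4.69 ± 0.14, adjusted p = 4.56e-22). Camk1d, a calcium/calmodulin-dependent kinase, averaged 34.9 ± 1.26 CPM in MN1 KO, 14.7 ± 0.733 CPM in MN1 CTL, 30.5 ± 0.922 CPM in H9M KO and 0.273 ± 0.118 CPM in H9M CTL (difference -5.53 ± 0.18). The KO levels of Camk1d in the models were close, and most of the gap was between the CTL levels. The same held for the transmembrane protein gene Tmem268, which averaged 94.0 ± 1.58 CPM in MN1 KO, 8.003 ± 0.878 CPM in MN1 CTL, 84.5 ± 3.33 CPM in H9M KO and 0.239 ± 0.0419 CPM in H9M CTL (difference -4.90 ± 0.21). Btla, an inhibitory immune receptor, averaged 118 ± 3.87 CPM in MN1 KO, 32.5 ± 1.30 CPM in MN1 CTL, 70.7 ± 2.07 CPM in H9M KO and 0.799 ± 0.202 CPM in H9M CTL (difference -4.63 ± 0.13). Il6st, the gp130 subunit shared by receptors of the interleukin-6 family, averaged 57.5 ± 3.71 CPM in MN1 KO, 28.3 ± 1.20 CPM in MN1 CTL, 126 ± 4.47 CPM in H9M KO and 7.63 ± 0.107 CPM in H9M CTL (difference -3.05 ± 0.08). The ectoenzyme gene Cd38 rose 4.65-fold in MN1 and 46.9-fold in H9M, and Tlr7, a receptor of single-stranded RNA, 5.54-fold and 34.1-fold in the same order. All of these differences passed the test.

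The 540 genes that rose in both models and more in MN1 included genes that were almost off in MN1 controls. Stab1, the scavenger receptor stabilin-1 (ENSMUSG00000042286.13, chromosome 14, 31139017 to 31168651), had 508, 475 and 458 CPM in MN1 KO libraries, 1.32, 0.937 and 0.983 CPM in MN1 CTL libraries, 11.8, 10.8 and 10.2 CPM in H9M KO libraries, and 1.503, 1.28 and 1.10 CPM in H9M CTL libraries. The CTL libraries of the models overlapped, and the MN1 KO libraries stood apart. Stab1 rose 446-fold in MN1 and 8.48-fold in H9M (difference 5.72 ± 0.27, adjusted p = 1.28e-16). Amotl1, an angiomotin family protein, averaged 63.3 ± 2.71 CPM in MN1 KO, 0.346 ± 0.0924 CPM in MN1 CTL, 3.30 ± 0.413 CPM in H9M KO and 1.33 ± 0.1251 CPM in H9M CTL (difference 6.18 ± 0.32). Mgst1, a microsomal glutathione transferase, averaged 29.8 ± 1.10 CPM in MN1 KO, 0.250 ± 0.0485 CPM in MN1 CTL, 207 ± 2.83 CPM in H9M KO and 73.6 ± 7.51 CPM in H9M CTL (difference 5.36 ± 0.21). Ly6c2, the gene of the monocyte antigen Ly6C, had 71.8, 70.3 and 70.5 CPM in MN1 KO libraries, 2.08, 1.94 and 2.33 CPM in MN1 CTL libraries, 2694, 2793 and 2785 CPM in H9M KO libraries, and 1126, 1157 and 1177 CPM in H9M CTL libraries. Its level was far lower in MN1 than in H9M cells in every library, and the MN1 KO libraries did not reach the H9M CTL level. Ly6c2 rose 33.4-fold in MN1 and 2.41-fold in H9M (difference 3.79 ± 0.08, adjusted p = 3.09e-25). Ly6c2 has a near-identical copy, Ly6c1, so its counts are uncertain where reads could fall on either.

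Both-down genes were fewer and their differences smaller. Tgm2, a transglutaminase that retinoic acid induces, averaged 3.43 ± 0.275 CPM in MN1 KO, 67.5 ± 2.00 CPM in MN1 CTL, 1.03 ± 0.319 CPM in H9M KO and 117 ± 2.09 CPM in H9M CTL. It fell 19.7-fold in MN1 and 111-fold in H9M (difference 2.497 ± 0.17, adjusted p = 5.23e-13). Thbs1, the matrix protein thrombospondin 1, averaged 19.0 ± 2.41 CPM in MN1 KO, 60.6 ± 5.16 CPM in MN1 CTL, 102 ± 5.58 CPM in H9M KO and 1414 ± 17.2 CPM in H9M CTL (difference 2.10 ± 0.13). Tfap2c, a transcription factor known from trophoblast and breast, fell 2.16-fold in MN1 and 7.45-fold in H9M. Kit, the receptor for the SCF in the medium, fell 1.29-fold in MN1 and 1.99-fold in H9M (difference 0.63 ± 0.04, adjusted p = 1.85e-12). Genes that fell more in MN1 included Ighm, the constant region of immunoglobulin M, which averaged 6.37 ± 0.655 CPM in MN1 KO, 35.4 ± 0.582 CPM in MN1 CTL, 86.9 ± 1.15 CPM in H9M KO and 124 ± 5.05 CPM in H9M CTL (difference -1.98 ± 0.08). The lysosomal amidase gene Naaa averaged 1.99 ± 0.220 CPM in MN1 KO, 10.0 ± 1.09 CPM in MN1 CTL, 21.5 ± 1.52 CPM in H9M KO and 26.9 ± 0.736 CPM in H9M CTL (difference -2.03 ± 0.15). Cdh23, a cadherin, fell 5.81-fold in MN1 and 1.48-fold in H9M, and Tshz1, a zinc-finger factor, 2.85-fold and 1.48-fold in the same order. In CPM the falls of Ighm and Cdh23 were larger in H9M.

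The next genes were called in the H9M knockout alone. Mef2c, a MADS-box factor of myeloid and lymphoid progenitors, had 76.8, 86.7 and 81.1 CPM in MN1 KO libraries, 81.6, 71.1 and 76.2 CPM in MN1 CTL libraries, 41.6, 43.5 and 41.3 CPM in H9M KO libraries, and 4.36, 5.22 and 4.24 CPM in H9M CTL libraries. The MN1 groups overlapped at a high level, and H9M KO libraries lay well above H9M CTL libraries. The H9M rise was 9.20-fold, the MN1 effect 0.09 ± 0.05 (adjusted p = 0.151), and the difference -3.11 ± 0.10 (adjusted p = 9.34e-21). Klf2, a factor of quiescence in lymphocytes, averaged 3.31 ± 0.867 CPM in MN1 KO, 3.37 ± 0.603 CPM in MN1 CTL, 14.7 ± 2.96 CPM in H9M KO and 3.36 ± 0.262 CPM in H9M CTL (difference -2.16 ± 0.25), and Zeb2, a repressor needed for monocyte and dendritic cell development, had a difference of -1.19 ± 0.06. Aldh1a3, an enzyme that makes retinoic acid, had 40.2, 39.1 and 38.2 CPM in MN1 KO libraries, 39.1, 43.7 and 42.1 CPM in MN1 CTL libraries, 22.1, 21.1 and 22.6 CPM in H9M KO libraries, and 193, 194 and 182 CPM in H9M CTL libraries. Only H9M KO libraries lay below their controls, 8.55-fold (difference 3.00 ± 0.07, adjusted p = 1.34e-24). The circadian and immune repressor gene Bhlhe40 averaged 46.6 ± 0.938 CPM in MN1 KO, 50.2 ± 2.75 CPM in MN1 CTL, 25.6 ± 3.35 CPM in H9M KO and 67.2 ± 4.60 CPM in H9M CTL (difference 1.26 ± 0.10).

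In MN1 alone, Padi4, the enzyme that citrullinates histones in neutrophils, averaged 10.1 ± 0.672 CPM in MN1 KO, 1.39 ± 0.231 CPM in MN1 CTL, 174 ± 5.25 CPM in H9M KO and 177 ± 8.21 CPM in H9M CTL. It rose 7.26-fold in MN1 and its H9M effect was -0.01 ± 0.05 (difference 2.87 ± 0.14, adjusted p = 1.34e-16). Tnfrsf26, a decoy receptor of the TNF receptor family, averaged 67.5 ± 3.16 CPM in MN1 KO, 14.8 ± 1.249 CPM in MN1 CTL, 69.9 ± 2.97 CPM in H9M KO and 71.7 ± 4.82 CPM in H9M CTL (difference 2.21 ± 0.09). Its MN1 KO level was about that of both H9M groups. Nlrc4, an inflammasome sensor of bacterial proteins, rose 4.07-fold in MN1, where it stayed under 2 CPM, against more than 30 CPM in every H9M library (difference 1.93 ± 0.30). Falls in MN1 alone included the transglutaminase gene Tgm3, which averaged 22.3 ± 1.42 CPM in MN1 KO, 67.6 ± 2.55 CPM in MN1 CTL, 5.40 ± 0.456 CPM in H9M KO and 5.67 ± 0.496 CPM in H9M CTL (difference -1.55 ± 0.17). Jag1, a Notch ligand, averaged 8.72 ± 0.386 CPM in MN1 KO, 17.2 ± 0.985 CPM in MN1 CTL, 3.10 ± 0.180 CPM in H9M KO and 2.55 ± 0.461 CPM in H9M CTL (difference -1.28 ± 0.19), and Hnf4a, a nuclear receptor known from liver, averaged 6.98 ± 0.432 CPM in MN1 KO, 15.9 ± 0.911 CPM in MN1 CTL, 7.56 ± 1.77 CPM in H9M KO and 8.60 ± 0.411 CPM in H9M CTL (difference -1.03 ± 0.15).

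Genes that 1 model hardly expressed gave little to compare. Of 351 tested genes under 0.1 CPM in both MN1 groups, 195 were called in the H9M knockout and 15 for the difference. Of 700 genes under 0.1 CPM in both H9M groups, 449 were called in the MN1 knockout and 17 for the difference. Over all genes tested, 51.5% were called in the H9M knockout, 55.0% in the MN1 knockout and 28.4% for the difference. Genes so low in 1 model passed the filter on low counts through other groups. Nothing is therefore read from their knockout counts. Olfm1, a secreted olfactomedin protein, had a mean of 31.3 CPM in H9M KO against 0.376 CPM in H9M CTL, with 6 counts in MN1 KO and 1 in MN1 CTL over 3 libraries each. Hkdc1, a hexokinase-like protein, had 773 counts in MN1 KO against 16 in MN1 CTL and none in H9M cells. For such genes a missing call for the difference does not show that the models respond alike.

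Gene lists from textbook knowledge were read against the background, in which 14.2% of genes were higher and 14.2% lower. Monocyte and macrophage markers rose in both models, and mostly more in H9M. Of 18 tested, 16 rose in MN1 and 18 in H9M, and for the difference 10 were lower, 3 higher and 5 not called, with a median difference of -1.75. Ccr2, the monocyte chemokine receptor, averaged 576 ± 11.3 CPM in MN1 KO, 502 ± 10.0 CPM in MN1 CTL, 237 ± 6.80 CPM in H9M KO and 42.8 ± 5.07 CPM in H9M CTL (difference -2.29 ± 0.12, adjusted p = 6.02e-16). Mpeg1, the macrophage pore-forming protein perforin-2, averaged 7.30 ± 0.249 CPM in MN1 KO, 4.63 ± 0.758 CPM in MN1 CTL, 201 ± 5.04 CPM in H9M KO and 16.8 ± 1.55 CPM in H9M CTL (difference -2.93 ± 0.12). Ly6c2 was 1 of the 3 that were higher. Over all alternative settings, each library left out in turn included, 8 to 11 were lower and 3 higher.

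Primary granule genes leaned the other way. Of 12 tested, 10 rose in MN1 and 6 in H9M, where 3 fell, and for the difference 9 were higher, 1 lower and 2 not called (median 0.72). Prss57, a neutrophil serine protease, averaged 10.2 ± 0.776 CPM in MN1 KO, 2.23 ± 0.146 CPM in MN1 CTL, 39.7 ± 1.04 CPM in H9M KO and 48.2 ± 1.503 CPM in H9M CTL (difference 2.45 ± 0.12). Ms4a3, a marker of granulocyte-monocyte progenitors, averaged 287 ± 8.60 CPM in MN1 KO, 53.5 ± 5.91 CPM in MN1 CTL, 782 ± 32.2 CPM in H9M KO and 689 ± 19.5 CPM in H9M CTL (difference 2.22 ± 0.08). Srgn, the proteoglycan that packs granule proteases, rose in MN1 and fell in H9M (difference 1.38 ± 0.09). Ctsc, the protease that activates granule serine proteases, was the 1 lower member (difference -0.76 ± 0.04). Neutrophil maturation genes showed no common lean, with 4 higher, 3 lower and 8 not called of 15. Lcn2, lipocalin-2 of specific granules, averaged 66.3 ± 0.645 CPM in MN1 KO, 15.6 ± 2.51 CPM in MN1 CTL, 165 ± 3.18 CPM in H9M KO and 85.2 ± 4.18 CPM in H9M CTL (difference 1.12 ± 0.09), while Mmp8 was far lower. Of 7 phagocyte oxidase genes 4 were higher and 1 lower. The lower count was 2 with RLE scaling, with the 12 libraries alone, and without H9M KO replicate 2, MN1 CTL replicate 3 or MN1 KO replicate 2. Ncf1, its p47 subunit, had a difference of 0.82 ± 0.05. Cybb, the gp91 subunit, had 246 CPM in H9M KO against 2.96 CPM in H9M CTL, with 12 and 6 counts over 3 libraries in MN1 KO and MN1 CTL (difference -5.26 ± 0.92, adjusted p = 4.70e-05).

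Receptors of innate immunity split. In the Toll-like receptor list 4 were higher and 7 lower of 16, among them Cd180, a homolog of the Toll-like receptors, with a difference of -3.37 ± 0.20. In the list of Fc and paired immunoreceptors 7 were higher and 6 lower of 19. Fcgr3, a low-affinity IgG receptor, averaged 203 ± 2.18 CPM in MN1 KO, 81.9 ± 1.87 CPM in MN1 CTL, 483 ± 15.1 CPM in H9M KO and 405 ± 3.05 CPM in H9M CTL (difference 1.04 ± 0.05, adjusted p = 1.61e-17). Trem1, an amplifier of neutrophil and monocyte activation, rose 5.06-fold in MN1 and 1.2497-fold in H9M, and Clec4d, a C-type lectin, 13.7-fold and 4.31-fold in the same order. Cytokine and growth factor receptors had 7 higher and 6 lower of 24. Il17ra, the interleukin-17 receptor, averaged 166 ± 3.80 CPM in MN1 KO, 169 ± 2.95 CPM in MN1 CTL, 174 ± 1.68 CPM in H9M KO and 80.2 ± 2.35 CPM in H9M CTL (difference -1.16 ± 0.05). Cytokines and chemokines had 1 higher and 6 lower of 18, and 3 lower where genes had to reach 1 CPM in the highest group of each model. Of 11 genes of antigen presentation and dendritic cells, 2 were higher (1 with that stricter filter) and 3 lower, with H2-DMa, which loads peptides, at -0.69 ± 0.07 and Tcf4, a factor of plasmacytoid dendritic cells, at -0.83 ± 0.06. Interferon response genes had 6 higher and 6 lower of 22, with Gbp3, an interferon-induced GTPase, at -1.36 ± 0.14 and Oasl2 at -2.97 ± 0.40. Of the higher ones, Bst2 had 68.2, 70.5 and 71.4 CPM in MN1 KO libraries and 37.7, 41.3 and 37.0 CPM in MN1 CTL libraries. In H9M Bst2 had 63.6, 60.8 and 65.1 CPM in KO libraries and 50.4, 47.1 and 51.8 CPM in CTL libraries. The higher count of the interferon list was 3 with the stricter filter and 3 without MN1 KO replicate 3, and over all alternatives 4 to 6 were lower. Retinoic acid response genes had 2 higher and 3 lower of 14, with Dhrs3, a retinaldehyde reductase, at -0.85 ± 0.06 and the receptor gene Rara at -0.95 ± 0.09. Tgm2, described above, was among the higher ones. Only 1 gene of the retinoic acid list was higher with the stricter filter, and also without MN1 CTL replicate 2, MN1 KO replicate 1 or MN1 KO replicate 3. Integrins and adhesion genes had 10 higher and 4 lower of 21, with Cd44 among the lower ones. Among the higher ones, Pecam1 had 527, 528 and 514 CPM in MN1 KO libraries and 393, 401 and 407 CPM in MN1 CTL libraries. In H9M it had 593, 605 and 606 CPM in KO libraries and 628, 645 and 646 CPM in CTL libraries.

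Stem and progenitor genes were more often lower than higher, 8 against 3 of 22. Over all alternative settings, 6 to 8 were lower and 3 higher. Cd34, the progenitor surface antigen, averaged 3132 ± 27.9 CPM in MN1 KO, 2080.3 ± 56.8 CPM in MN1 CTL, 964 ± 18.6 CPM in H9M KO and 214 ± 5.98 CPM in H9M CTL, which is 1.501-fold up in MN1 and 4.55-fold up in H9M (difference -1.60 ± 0.05, adjusted p = 3.44e-22). In CPM the Cd34 rise was larger in MN1. Msi2, an RNA-binding protein of stem cells, fell 1.17-fold in MN1 and 1.91-fold in H9M (difference 0.70 ± 0.07), and the ETS factor gene Erg had a difference of -0.57 ± 0.06. Myeloid and blood transcription factors had 8 higher and 8 lower of 29, with the ETS factor gene Fli1 up in MN1 and down in H9M (difference 0.71 ± 0.06). Of 15 LSD1 and CoREST complex members, which include Kdm1a, 3 were higher and 2 lower. The counts were 5 higher with the 12 libraries alone, and 1 lower without H9M CTL replicate 2 or 3, H9M KO replicate 1, MN1 CTL replicate 2 or MN1 KO replicate 3. Gse1, a partner of the complex, had a difference of 0.48 ± 0.07. Genes of the matrix and TGF-beta axis had 6 higher and 5 lower of 18. Col4a1, a basement membrane collagen, averaged 136 ± 4.46 CPM in MN1 KO, 70.9 ± 1.73 CPM in MN1 CTL, 1.21 ± 0.215 CPM in H9M KO and 2.64 ± 0.239 CPM in H9M CTL (difference 2.05 ± 0.17).

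**Figure D3:**
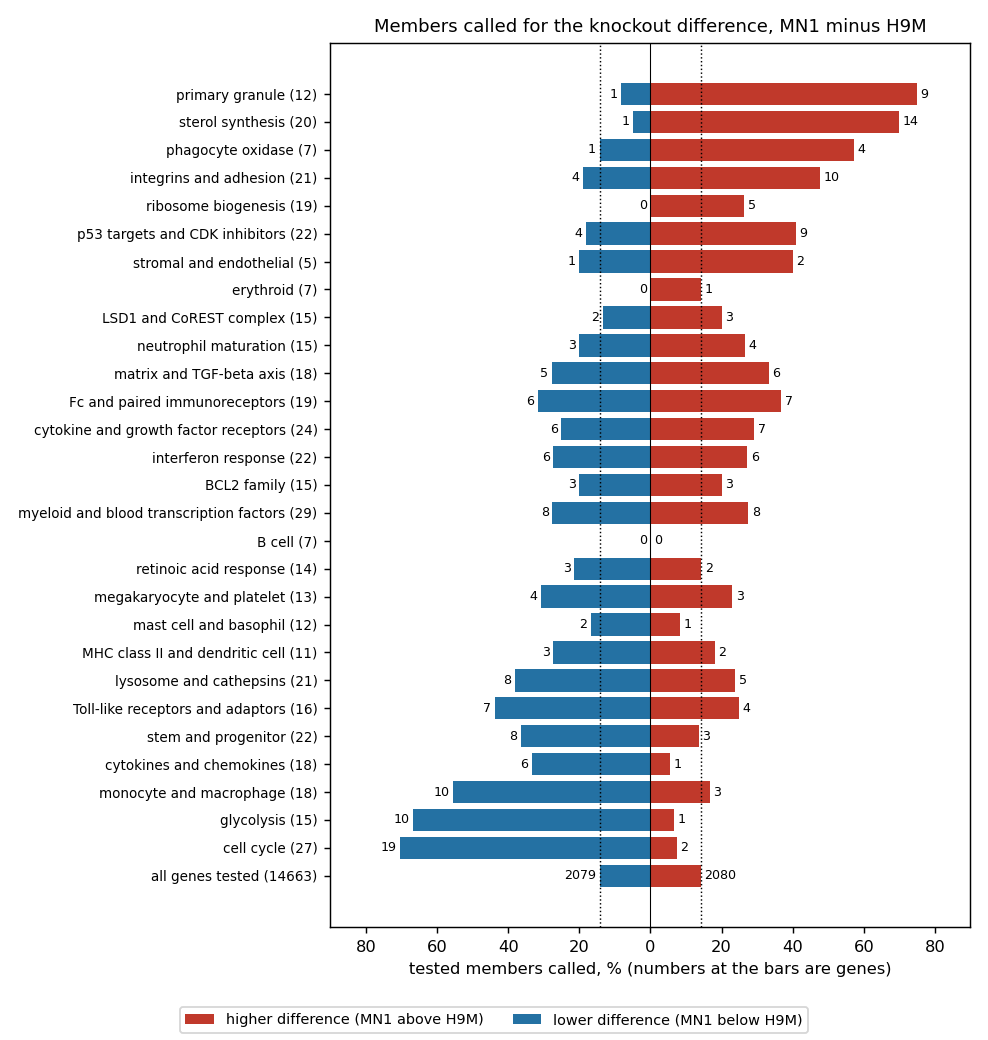
Share of tested members of each gene list (number tested in brackets) called for the difference, with genes counted at the bar ends; bars to the right are higher in MN1 and bars to the left lower, and dotted lines mark the 14.2% of all genes called in each direction. Lists with fewer than 5 tested members are left out. Primary granule and sterol synthesis have 9 and 14 higher, and glycolysis and cell cycle 10 and 19 lower.

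Cell cycle and metabolic genes differed by small amounts that pointed one way within a list. Of 27 cell cycle genes, 22 fell in MN1 and 17 in H9M, and the difference was lower for 19 and higher for 2 (1 without H9M KO replicate 2), with a median of -0.27. Mcm5, a subunit of the replicative helicase, averaged 291 ± 5.76 CPM in MN1 KO, 413 ± 4.79 CPM in MN1 CTL, 339.7 ± 1.14 CPM in H9M KO and 364 ± 13.4 CPM in H9M CTL (difference -0.42 ± 0.04, adjusted p = 8.40e-09). Ccna2, cyclin A2, averaged 146 ± 3.88 CPM in MN1 KO, 202 ± 3.57 CPM in MN1 CTL, 124 ± 0.989 CPM in H9M KO and 131 ± 1.89 CPM in H9M CTL (difference -0.40 ± 0.05). Ccnd3, cyclin D3, rose in H9M alone (difference -0.52 ± 0.06). Of 15 glycolysis genes 10 were lower and 1, Hk3, higher (median -0.29). Slc2a1, the glucose transporter, averaged 118 ± 6.00 CPM in MN1 KO, 156 ± 6.24 CPM in MN1 CTL, 114 ± 3.62 CPM in H9M KO and 100.0 ± 3.58 CPM in H9M CTL (difference -0.61 ± 0.06), and the pyruvate kinase gene Pkm had a difference of -0.35 ± 0.04. Of 20 sterol synthesis genes 14 were higher and 1 lower (median 0.27). In H9M 14 of them fell and 1 rose, and in MN1 8 rose and 4 fell. Mvd, an enzyme of the mevalonate pathway, averaged 51.2 ± 0.757 CPM in MN1 KO, 43.9 ± 2.17 CPM in MN1 CTL, 67.7 ± 3.52 CPM in H9M KO and 91.4 ± 3.52 CPM in H9M CTL (difference 0.64 ± 0.07). Ribosome biogenesis genes fell in both, 16 of 19 in MN1 and 19 of 19 in H9M, and 5 were higher and none lower for the difference, with Rcl1 at 0.42 ± 0.06 and Wdr12 at 0.32 ± 0.06.

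Of 22 genes induced by p53 or inhibiting CDKs, 16 rose in each model, and the difference was higher for 9 and lower for 4. Cdkn1a, the CDK inhibitor p21, averaged 446 ± 9.78 CPM in MN1 KO, 183 ± 8.26 CPM in MN1 CTL, 117 ± 5.40 CPM in H9M KO and 22.3 ± 2.07 CPM in H9M CTL. It rose 2.43-fold in MN1 and 5.29-fold in H9M (difference -1.12 ± 0.07, adjusted p = 2.94e-14), though the rise in CPM was larger in MN1. Phlda3, a p53-induced inhibitor of AKT, had a difference of -2.23 ± 0.24. Cdkn1a and Phlda3 are both among the 4 lower members, against 9 higher. Among those higher, Sesn2 had 122, 121 and 125 CPM in MN1 KO libraries and 82.6, 87.0 and 88.4 CPM in MN1 CTL libraries. In H9M it had 66.0, 69.3 and 74.6 CPM in KO libraries and 68.5, 75.1 and 73.2 CPM in CTL libraries. In the BCL2 family 3 were higher and 3 lower of 15, with the survival gene Bcl2l1 up in MN1 alone (difference 0.60 ± 0.05). Lysosome and cathepsin genes rose in both models, 17 of 21 in MN1 and 18 of 21 in H9M, and 5 were higher (3 without MN1 CTL replicate 1) and 8 lower for the difference.

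Markers of other cell types were summed in each library. Mast cell and basophil markers (14 genes) reached 3908 to 3993 CPM in MN1 KO, 1887 to 1936 CPM in MN1 CTL, 276 to 285 CPM in H9M KO and 104 to 106 CPM in H9M CTL, a sum that moved with both model and knockout. Its part in the differences above was not tested. Hdc, the histamine-forming enzyme, was a large share of it, with 1465 ± 27.7 CPM in MN1 KO, 446 ± 15.4 CPM in MN1 CTL, 197 ± 4.70 CPM in H9M KO and 48.0 ± 1.01 CPM in H9M CTL (difference -0.34 ± 0.05), and Gata2 had a difference of -0.42 ± 0.05. For the list 1 gene was higher, 2 lower and 9 not called of 12. Monocyte and macrophage markers (24 genes) summed to 1257 to 1277 CPM in MN1 KO, 844 to 846 CPM in MN1 CTL, 5062 to 5188 CPM in H9M KO and 1687 to 1693 CPM in H9M CTL. Neutrophil maturation genes (21 genes) summed to 725 to 775 CPM in MN1 KO, 60.6 to 68.5 CPM in MN1 CTL, 2540 to 2842 CPM in H9M KO and 545 to 559 CPM in H9M CTL. MHC class II and dendritic cell genes (17 genes) summed to 183 to 197 CPM in MN1 KO and 172 to 183 CPM in MN1 CTL. In H9M they summed to 238 to 243 CPM in KO and 178 to 180 CPM in CTL. Megakaryocyte and platelet markers (16 genes) summed to 422 to 430 CPM in MN1 KO and 298 to 315 CPM in MN1 CTL. In H9M they summed to 424 to 440.1 CPM in KO and 404 to 421 CPM in CTL. For the difference 3 were higher and 4 lower of 13 tested. Among the higher, Nfe2 had 158, 160 and 158 CPM in MN1 KO libraries and 114, 124 and 112 CPM in MN1 CTL libraries. In H9M Nfe2 had 349, 344 and 363 CPM in KO libraries and 343, 357 and 358 CPM in CTL libraries. The platelet chemokine gene Ppbp was among the lower (difference -3.32 ± 0.48, and -3.98 without H9M CTL replicate 2). Erythroid markers (16 genes) summed to 85.5 to 86.5 CPM in MN1 KO, 139.8 to 160.3 CPM in MN1 CTL, 16.0 to 17.7 CPM in H9M KO and 59.97 to 71.7 CPM in H9M CTL, most of it Car2, a carbonic anhydrase (difference 1.06 ± 0.09). Markers of eosinophils, of stromal cells, and of B, T and NK lymphocytes stayed at or below 29.6 CPM per list in every library. The B cell gene Ms4a1, the T cell genes Cd3e and Cd8a, and the stromal genes Dcn and Col3a1 had no counts in these libraries. Other members of these lists had counts. The B cell gene Ebf1 had 18.5, 18.3 and 18.2 CPM in H9M CTL libraries and 2.14, 2.31 and 1.76 CPM in H9M KO libraries. The lymphocyte gene Gzmb had 15.8, 16.0 and 16.1 CPM in MN1 KO libraries and 7.17, 6.91 and 6.91 CPM in MN1 CTL libraries. The stromal gene Col1a2 had 8.01, 9.98 and 9.79 CPM in MN1 KO libraries and 13.5, 15.1 and 15.6 CPM in MN1 CTL libraries.

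The motifs named above were counted in the promoters of tested protein-coding genes, 10010 of 12382 of which had a window in the table. GAGGAAGT was found in 3.27% of these windows and AAATCA in 8.14%, and in 3.28% and 14.3% of all 27025 windows. Genes up in both and more in MN1 held GAGGAAGT in 8.55% and AAATCA in 11.1%. Genes up in both and more in H9M held them in 4.96% and 11.9%. Genes down in MN1 and up in H9M held them in 0.510% and 9.69%, and genes down in both and more in MN1 in 0.833% and 5.42%. For GAGGAAGT these are 1 of 196 and 2 of 240 windows. Genes up in H9M alone held them in 4.28% and 8.82%, and genes down in MN1 alone in 1.24% and 7.43%. Shares for genes up in MN1 and down in H9M are not given, because only 74.1% of them had a window. Coverage was also lower, and shares are not given, for genes up in MN1 alone (79.5%), down in H9M alone (78.8%), and down in both and more in H9M (78.4%). The 2 motifs were searched apart, neither contains the other, and no test was made. A match is a description of these letters and not a binding site.

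The distance between the models was compared in KO and in CTL cells. The gap (MN1 minus H9M) in KO cells minus that in CTL cells is the difference itself. Nothing is therefore read from shares among called genes. Of the 4159 called genes, 2361 (56.8%) had a narrower gap between MN1 and H9M in KO than in CTL cells, compared with 52.9% of all genes tested. Their median absolute log2 gap was 0.56 in KO and 0.58 in CTL cells. At 2-fold or more 593 of 908 (65.3%) were narrower. The share was highest in genes up in both and more in MN1, 420 of 540 (77.8%). It was lowest in genes down in both and more in H9M, 70 of 216 (32.4%). Genes up in the H9M knockout alone had 44.9%, and genes down in MN1 and up in H9M 48.1%. Hk3 stood at -2.56 (MN1 minus H9M, log2) in KO cells and at -5.75 in CTL cells. For 320 called genes the order of the models turned round, as for Tgfbi. Irf8 went the other way, with the models close in CTL cells and apart in KO cells. The sign of a difference also depends on the scale. For 390 of the 4159 genes (9.38%), a difference of CPM changes has the opposite sign to the log2 difference, among them Gfi1b, Cd34, Cdkn1a, Tmem268, Btla, Hdc, Mgst1, Ly6c2, Ighm, Cdh23, Nlrc4, Lcn2, Phlda3, Car2, Gata2 and Slc16a12.

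The 12 libraries with ATRA gave 4492 called genes for the same difference (30.6%), 2085 higher (14.2%) and 2407 lower (16.4%). At 2-fold or more these were 6.46% of genes, 3.40% higher and 3.06% lower. Of the 4159 genes called without ATRA, 2958 were called with the same sign with ATRA, which is 71.1% of the first list and 65.9% of the second. Over all genes the differences had a Pearson correlation of 0.66 and a Spearman correlation of 0.62. Both lists come from 1 fit that shares its estimate of spread. Of the 908 genes at 2-fold or more, 677 (74.6%) were called with the same sign and 3 with the opposite one. Of the opposite classes, 259 of 298 and 213 of 233 genes were called with the same sign with ATRA, and 142 and 129 again had both effects called in opposite directions. Gfi1b had a difference of -7.22 ± 0.23 with ATRA, Stab1 6.27 ± 0.27 and Pde8a 4.36 ± 0.12, close to their values without it. Tgfbi averaged 15.1 ± 1.24 CPM in MN1 KO, 68.7 ± 4.91 CPM in MN1 CTL, 41.7 ± 0.567 CPM in H9M KO and 38.6 ± 1.58 CPM in H9M CTL with ATRA (difference -2.32 ± 0.08). Hk3 averaged 166 ± 1.72 CPM in MN1 KO, 34.4 ± 1.26 CPM in MN1 CTL, 812 ± 11.9 CPM in H9M KO and 883 ± 24.003 CPM in H9M CTL with ATRA (difference 2.37 ± 0.05).

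Kdm1a itself was less completely reduced in H9M KO cells with ATRA. It averaged 2.14 ± 0.264 CPM in MN1 KO, 197 ± 5.44 CPM in MN1 CTL, 11.1 ± 0.654 CPM in H9M KO and 148 ± 2.40 CPM in H9M CTL with ATRA, a difference of -2.80 ± 0.09 (adjusted p = 6.14e-21), so differences with ATRA set cells with unequal residual Kdm1a side by side. What part this has in the 292 genes (1.99%) whose difference changed between the ATRA states was not tested. Of these, 130 were higher with ATRA (0.887%) and 162 lower (1.10%), and 68 changed 2-fold or more (0.464%), 28 higher (0.191%) and 40 lower (0.273%). Bhlhe40 had a difference of 0.06 ± 0.09 with ATRA (adjusted p = 0.644) and Ncf1 -0.02 ± 0.05 (adjusted p = 0.877), and neither passed the test there.

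**Figure D4:**
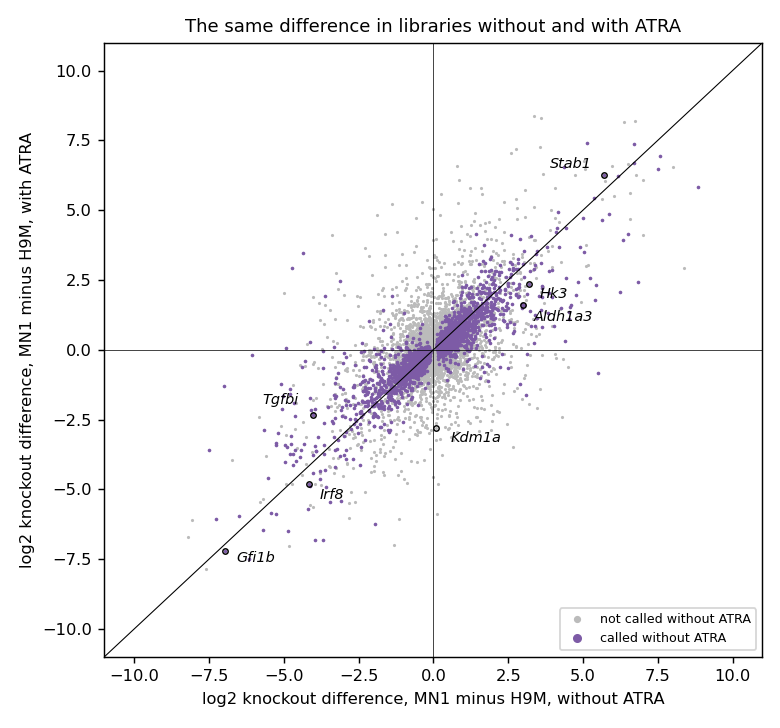
Each point is 1 of 14663 genes, with the log2 knockout difference (MN1 minus H9M) in the 12 libraries without ATRA on the horizontal axis and in the 12 libraries with ATRA on the vertical axis; purple points are the 4159 genes called without ATRA, and the line marks equal values. Gfi1b, Irf8, Stab1 and Hk3 keep their side, and Kdm1a is near 0 without ATRA and at -2.80 with it.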

How the data were processed

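RNA-seq of 24 libraries (8 groups of 3) was used. The authors deposited a table of raw read counts per gene for all libraries. Per the labels' protocols, stranded total RNA was sequenced as 100 bp paired ends, and STAR 2.5.3 and mm10 appear in the submitters' processing notes. No source used here names the counting tool, annotation or strand setting. Totals ran between 22402558 and 32674685 counts. Genes were filtered with filterByExpr, scaled by TMM and fitted with edgeR 4.0.16 (R 4.3.3) in 1 quasi-likelihood model of 8 groups (16 residual degrees of freedom). Benjamini-Hochberg adjustment ran over all 14663 genes, with calls at an adjusted p under 0.05. Fold changes carry a prior count of 0.125. The procedure was tested on simulated data for the MN1-minus-H9M difference over 14663 genes. It recovered 49 of 50 genes raised 2-fold, 48 of 50 at 0.5-fold, 27 of 50 at 1.25-fold and 26 of 50 at 0.8-fold, with 36 false calls. For all other genes the simulated MN1 effect was set to the H9M effect, held within a fixed range of folds. Genes with an H9M effect beyond that range thus carried a simulated difference, and any such call counts among the 36. How many of the 36 are such genes was not counted, so the 36 calls give no error rate. The changed genes were drawn from those above 1 CPM in all 4 groups, so recovery below that level was not tested. Spread was simulated from its trend with level, without a value for each gene. Alternatives were other scalings and filters, the 12 libraries alone, a larger prior count, a call at an adjusted p under 0.01, DESeq2 1.42.0, replicate blocks and leaving out each library.

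Gene names came with RefSeq positions from GRCm38.p6, and 48349 IDs matched. Named genes were fixed genes of the pathway, up to 6 per class and direction by size of the difference, 4 per list by adjusted p, and 3 per model among genes the other model lacks, with fewer printed. The members and lists were chosen with earlier results of these data known. Motif shares were limited to protein-coding genes after promoter coverage was seen.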

Additional observations from a re-analysis of the deposited data

Results flagged for a closer look

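The knockout effects were called in opposite directions for 298 genes that were up in MN1 and for 233 that were up in H9M, each with a called difference between the models. The knockout difference (MN1 minus H9M) was also compared between libraries with and without ATRA by the same edgeR model, and of 98 genes considered for the text, 26 changed at an adjusted p under 0.05, beside 292 of all 14663 genes (1.99%). Most of the 98 were picked for a large or strongly called difference without ATRA, so nothing is read from their share.

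The difference was lower with ATRA by these log2 changes (with ATRA minus without): Kdm1a -2.89, Aldh1a3 -1.39, Bhlhe40 -1.2, Tgm2 -1, Spns2 -0.935, Col4a1 -0.914, Ncf1 -0.839, Hk3 -0.822, Prss57 -0.768, Ighm -0.766, Mef2c -0.686, Mpeg1 -0.674, Irf8 -0.642 and Pglyrp1 -0.629. Kdm1a had -2.80 with ATRA and 0.09 without, Aldh1a3 had 1.61 with ATRA and 3.00 without, and Bhlhe40 had 0.06 with ATRA and 1.26 without. It was higher with ATRA by these log2 changes: Tgfbi 1.72, Ccr2 1.21, Btla 1.03, Ms4a3 0.805, Il6st 0.667, Dhrs3 0.666, Clec4d 0.643, Ctsc 0.6, F13a1 0.557, Erg 0.344, Gata2 0.32 and Cd34 0.249. Tgfbi had -2.32 with ATRA and -4.04 without, and Ccr2 had -1.08 with ATRA and -2.29 without. Kdm1a is itself among these genes, with unequal residual levels in the KO cells with ATRA, and its part in the other changes was not tested.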

How the results depend on the processing

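The number of called genes stayed within 1.5 times of 4159 under every alternative run. It was 2883 at an adjusted p under 0.01 (700 at 2-fold or more), 4164 with RLE scaling, 4110 with library totals, 3929 with no filter, 4306 with the 12 libraries alone, 4104 with DESeq2 and 3726 to 3864 with 1 library left out. Requiring at least 1 CPM in the highest group of each model left 11043 genes to test, of which 4010 were called. At 2-fold or more it left 588 genes in place of 908, and 296 in place of 472 among those higher in MN1. This filter removes genes under 1 CPM in both groups of a model. Part of the 908 genes therefore had low counts in 1 model. With 1 library left out, 845 to 879 genes were called at 2-fold or more. Deviations of same-numbered replicates were correlated by -0.25 to 0.42 (18 pairs, median -0.04, 2 above 0.1). Those of other-numbered replicates were correlated by -0.41 to 0.30 (36 pairs, median 0.02, 11 above 0.1). Deviations within a group of 3 libraries are tied to each other, so this check cannot show that the numbers do not pair libraries. A replicate block over all groups gave 4204 calls (905 at 2-fold or more), and a block within each model 4146 (895). Of the genes named with a difference, all kept their direction and side of the threshold under every alternative that gave a value per gene. Sema3a had -4.97, against -6.41 without H9M CTL replicate 2 and -4.35 with a prior count of 2, and Ppbp -3.32, against -3.98 without that library. Low counts in 1 group limit such values.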
